A study of Mus musculus with 12 samples.

Results

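The transcripts of the mitochondrial genome were described across sorted mouse T cells of 4 groups, in 12 RNA sequencing libraries. They were taken as the 37 rows of the count table whose symbol starts with mt-, of 48663 gene rows in all, and they comprise 13 protein-coding, 2 rRNA and 22 tRNA rows. KO IELp and control IELp were precursors of intestinal intraepithelial lymphocytes, sorted from the thymus as TCRβ+ CD4- CD8α- cells with high CD5, CD122, H-2Kb and high PD-1 and without CD44. KO spleen cells and control IELs were both sorted as CD45+ TCRβ+ CD4- CD8α+ CD8β- cells (CD8αα T cells), the first named by the titles as spleen cells and the second as intraepithelial lymphocytes of the gut. All mice were C57BL/6 and carried floxed Lrf alleles. The KO groups also carried Cd4-Cre, a recombinase under a promoter that is active from the double-positive stage of thymic development, and the control groups did not. Lrf (Zbtb7a) encodes a zinc finger transcription factor. Each group had 3 libraries of 40000 sorted cells each. The labels give no age, and nothing in them says that the 3 libraries of a group came from separate mice, so p-values measure the spread between libraries, which may be technical. In the comparison of KO spleen cells with control IELs, genotype and tissue differ together and cannot be told apart.

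The mitochondrial genome is a small circle that is read from both strands into long precursor RNAs. Cutting at the tRNAs that lie between the other genes frees the mRNAs and rRNAs, most of which then receive short poly(A) tails. The mRNAs encode subunits of respiratory complexes I (Nd genes), III (Cytb) and IV (Co genes) and of ATP synthase (Atp genes), and the rRNAs and tRNAs serve the organelle's own ribosomes. All other subunits, and the enzymes that copy, transcribe and translate this genome, are encoded in the nucleus. Copies of stretches of mitochondrial DNA also lie in nuclear chromosomes, and a read that fits both places cannot be given to either by its sequence.

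Gene counts summed to between 13432598 and 19947734 per library. Zbtb7a, the gene targeted by the deletion, had 45.5 ± 4.66 CPM (counts scaled to the same gene total in every library) in KO IELp and 75.4 ± 6.27 CPM in control IELp. Its level was 61.3 ± 2.13 CPM in KO spleen cells and 111 ± 8.91 CPM in control IELs (mean ± SD, n = 3 each in both sentences). A count over the whole gene includes reads outside the floxed part. Markers of T cells were found in all libraries, and Cd8a was high in both CD8αα groups. Itgae and Gzma, markers of intestinal intraepithelial lymphocytes, had 48.1 ± 4.12 and 9.50 ± 7.47 CPM in KO spleen cells, against 3775 ± 81.1 and 14786 ± 634 CPM in control IELs. All 5 markers of that list summed to between 873 and 889 CPM in KO spleen cells and between 34226 and 35491 CPM in control IELs. They summed to between 582 and 614 CPM in KO IELp and between 561 and 599 CPM in control IELp. Of 19 gut epithelial markers 13 had counts in KO spleen cells, where they summed to between 14.2 and 17.0 CPM. In control IELs 18 of the 19 had counts and summed to between 523 and 744 CPM, with Muc2 at 0. The same markers summed to between 67.1 and 69.3 CPM in KO IELp and between 67.1 and 75.6 CPM in control IELp, with 9 of 19 found in each. Myeloid markers summed to between 69.8 and 98.4 CPM in KO spleen cells, against between 257 and 374 CPM in control IELs, where Adgre1, C1qa and C1qb were at 0. They summed to between 23.1 and 26.3 CPM in KO IELp and between 19.4 and 25.9 CPM in control IELp. Of 4 B cell markers (Ms4a1, Cd79a, Cd79b and Pax5) all had counts in KO spleen cells, where they summed to between 79.1 and 94.4 CPM. In control IELs they summed to between 34.5 and 61.3 CPM, with Ms4a1 and Pax5 at 0. They summed to between 16.8 and 20.4 CPM in KO IELp and between 19.5 and 22.0 CPM in control IELp. The 6 erythroid markers summed to between 1.56 and 10.3 CPM in KO spleen cells and to less than 1 CPM in every library of the other groups. The part of these other cells in the mitochondrial counts was not tested. In bulk samples, fewer cells of a type and less RNA per cell cannot be told apart.

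The counts of 6 of the 13 protein-coding rows were low in every library, and these 6 lie side by side on the mitochondrial genome. Per kilobase of gene and over all libraries, mt-Co2, mt-Atp8, mt-Atp6, mt-Co3, mt-Nd3 and mt-Nd4l averaged between 0.0540 and 3.51 CPM. The other 7 protein-coding rows averaged between 127 and 1179 CPM per kilobase. A search of all transcripts of the GENCODE M21 annotation (GRCm38, the assembly of the mm10 build) found 7 unprocessed pseudogenes of at least 98% identity to mitochondrial genes over at least 200 bases. All 7 lie on the minus strand of chr1:24611535-24616197, in the same order as their mitochondrial counterparts. Gm28661, Gm10925, Gm28437 and Gm10222 are identical over their whole length to parts of mt-Co2, mt-Atp6, mt-Co3 and mt-Nd4l, and Gm28439 is identical to a part of mt-Nd4. Of the windows of 76 bases, the length of a read, 99.5% of those in mt-Co2, 99.5% in mt-Atp6, 99.9% in mt-Co3, 97.8% in mt-Nd3 and 98.6% in mt-Nd4l also occurred in nuclear transcripts of the annotation. The share was 61.5% for mt-Nd4, 39.4% for mt-Co1, 5.61% for mt-Nd2, 1.54% for mt-Nd5 and 0 for the other protein-coding and rRNA rows. These windows lay in the 7 transcripts, except that a part of those of mt-Co2 and mt-Co1 also or instead lay in Gm13341 and Gm13340, those of mt-Nd2 in Gm13339 and those of mt-Nd5 in Gm11407 and Gm4076. mt-Atp8 shares no window with a transcript, and its place in the copied block lies between Gm10925 and Gm28661, where no genome sequence was used here.

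**Figure D1:**
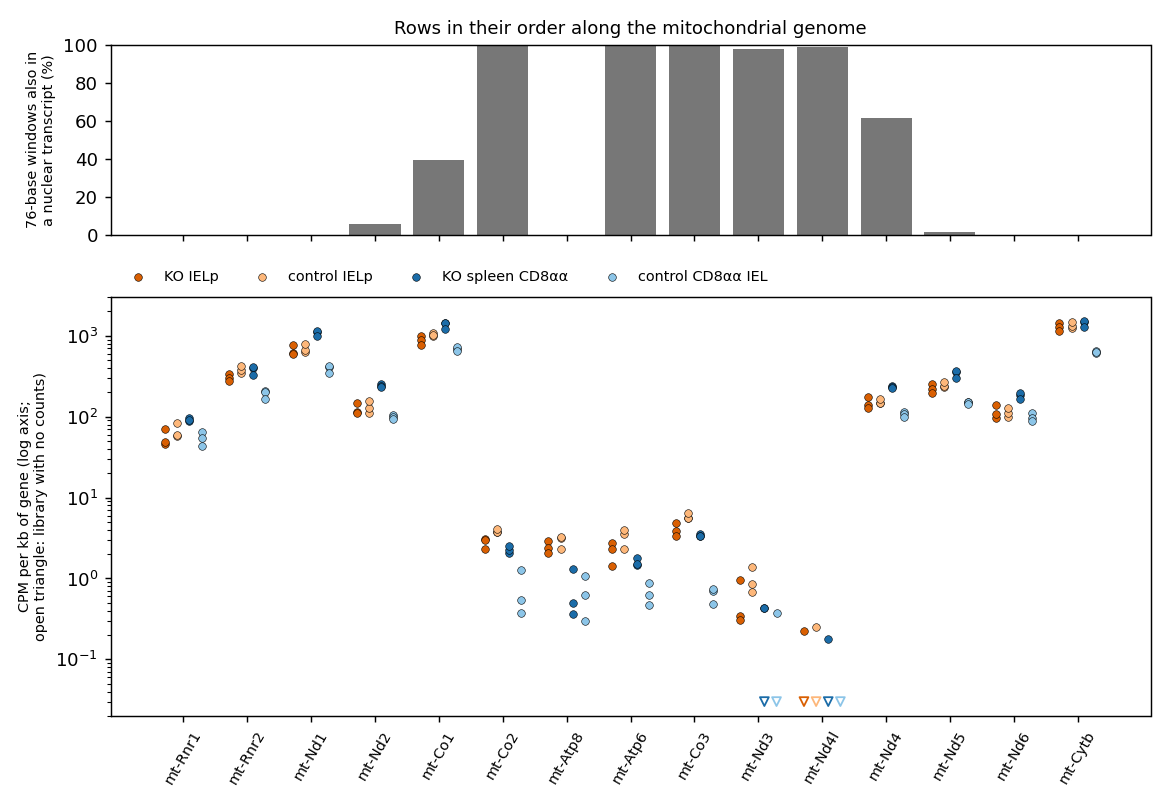
The upper panel gives, for each of the 15 protein-coding and rRNA rows in genome order, the percentage of its 76-base windows that also occur in a nuclear transcript. The lower panel gives CPM per kilobase of gene on a log axis, 1 point per library and 1 colour per group, with open triangles for libraries without counts. The 6 neighbouring rows from mt-Co2 to mt-Nd4l lie between 0.0540 and 3.51 CPM per kilobase on average, and the other protein-coding rows at 127 or above.

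Only 2 of the 7 nuclear transcripts differed from the mitochondrial genes within the aligned part, each by 1 base. In mt-Nd3, a subunit of complex I, and its copy Gm28438 the difference is T3C, counted from 1 at the start of the gene and giving the mitochondrial base first, which is position 9461 of chrM. In mt-Co1, the catalytic subunit of complex IV, and its copy Gm29216 the difference is A1066T, at position 6393 of chrM. The first 40 bases of mt-Nd3 and Gm28438, and 40 bases of mt-Co1 from base 1064 with the matching bases 11 to 50 of Gm29216, are shown because these bases are what tells the pairs apart. Capitals mark the base that differs.

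mt-Nd3: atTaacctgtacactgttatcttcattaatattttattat

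Gm28438: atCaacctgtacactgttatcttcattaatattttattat

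mt-Co1: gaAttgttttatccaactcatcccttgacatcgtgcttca

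Gm29216: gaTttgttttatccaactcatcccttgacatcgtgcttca

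The division of counts differed from pair to pair. Over the 12 libraries mt-Nd3 had 31 counts and Gm28438 had 1157, and the nuclear row was the higher one in 12 of 12 libraries. mt-Co1 had 305209 counts and Gm29216 had 352, and here the mitochondrial row was higher in 12 of 12. Of the 5 pairs identical over the aligned part, 3 were closer to one another, with 533 counts for mt-Co3 and 948 for Gm28437, 253 for mt-Atp6 and 515 for Gm10925, and 324 for mt-Co2 and 424 for Gm28661. mt-Nd4l had 3 counts in all, against 42 for Gm10222. mt-Nd4, which is copied in part, had 44037 and Gm28439 had 105. The base at position 9461 is known to differ among strains of laboratory mice. The labels give the strain without a substrain, and which base these mice carried was not tested.

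Reads that fit more than 1 place are not in the gene counts. They made up 17.0% ± 0.431 of the table's total in KO IELp, 18.1% ± 0.638 in control IELp, 16.8% ± 0.132 in KO spleen cells and 13.3% ± 0.322 in control IELs (SD, n = 3 each). The values of mt-Co2, mt-Atp8, mt-Atp6, mt-Co3, mt-Nd3 and mt-Nd4l below are those of the few reads assigned to each row, and the levels of those mRNAs cannot be read from them. For mt-Nd4 and mt-Co1 a part of the length is shared, and how far this lowered their counts was not tested. Below, the rows inside the copied stretch are the 6 with few reads. Those said to be outside it include mt-Nd4 and mt-Co1, which lie within it in part.

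Among the rows outside the copied stretch, mt-Cytb, the cytochrome b of complex III, had the highest level per length in 3 groups. It had 1284 ± 149 CPM per kilobase in KO IELp, 1359 ± 115 in control IELp, and KO spleen cells had 1437 ± 136 (mean ± SD, n = 3 each). In control IELs it had 636 ± 17.6 CPM per kilobase, and mt-Co1 came first with 688 ± 44.9. mt-Co1 had 880.4 ± 105 CPM per kilobase in KO IELp, 1034 ± 32.0 in control IELp, and KO spleen cells had 1364 ± 132. The libraries of mt-Cytb and mt-Co1 overlapped in KO spleen cells and in control IELs, and did not overlap in both IELp groups. mt-Nd1 came next after these in all 4 groups, with 664 ± 94.5, 701 ± 89.0, 1083 ± 80.5 and 390.4 ± 42.0 CPM per kilobase in KO IELp, control IELp, KO spleen cells and control IELs. The 16S rRNA (mt-Rnr2) and mt-Nd5 followed, and their libraries overlapped in KO spleen cells. mt-Nd4 and mt-Nd2 overlapped in all 4 groups. mt-Nd6 stood below them, overlapping its upper neighbour in 3 groups and not in KO spleen cells. The 12S rRNA (mt-Rnr1) was lower than mt-Nd6 in all 4 groups without overlap. It had 55.0 ± 13.3 CPM per kilobase in KO IELp, 66.6 ± 15.0 in control IELp, 91.7 ± 4.05 in KO spleen cells and 53.9 ± 10.5 in control IELs. These levels were divided by the whole length of each row. Of the 76-base windows, 39.4% in mt-Co1 and 61.5% in mt-Nd4 also occur in nuclear transcripts, but none in mt-Cytb and the rRNAs. How far this changed the places of mt-Co1 and mt-Nd4 in the order was not tested. How evenly mRNA and rRNA were turned into cDNA was not tested, so this order is one of reads and not of RNA molecules.

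The make-up of the mitochondrial counts differed between the IELp and the CD8αα groups. mt-Cytb took 30.4% ± 0.361 of the summed mt- counts in KO IELp, 28.8% ± 0.772 in control IELp, 24.1% ± 0.187 in KO spleen cells and 23.4% ± 1.52 in control IELs (SD, n = 3 each). mt-Co1 took 28.2% ± 0.624 in KO IELp, 29.7% ± 2.36 in control IELp, 30.9% ± 0.347 in KO spleen cells and 34.0% ± 0.634 in control IELs. The 6 IELp libraries all had a larger share of mt-Cytb than the 6 CD8αα libraries, whereas mt-Co1 was highest in the 3 control IEL libraries. mt-Nd1 took 15.2% ± 0.354 in KO spleen cells, more than in any library of the other groups. The summed mt- counts leave out reads that fit several places and hold few reads of the rows inside the copied stretch.

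**Figure D2:**
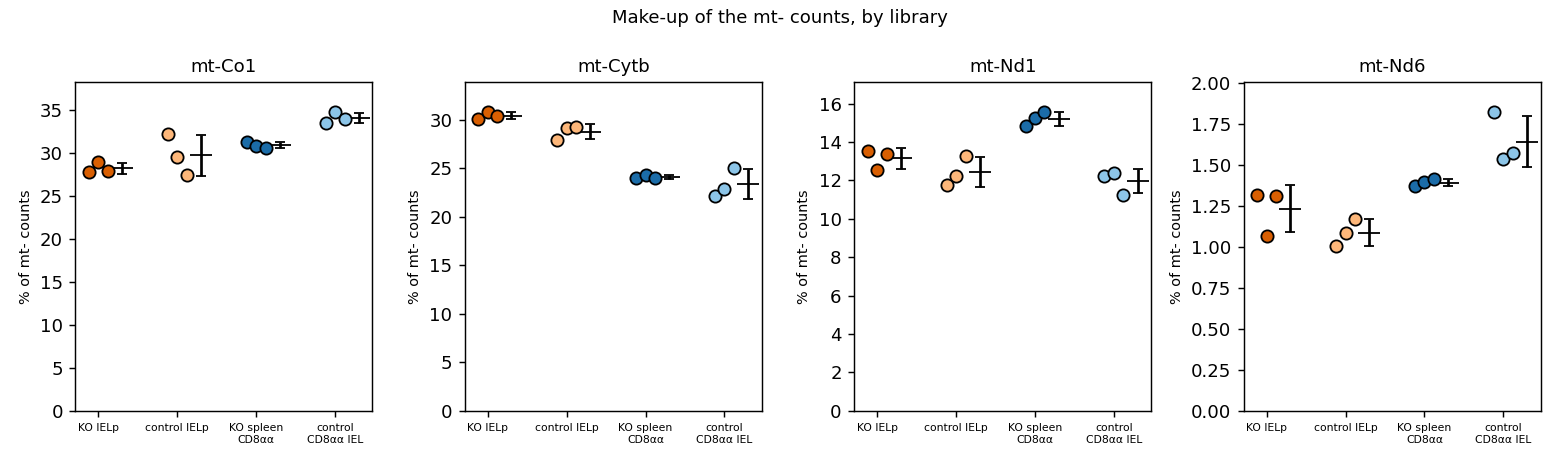
Each panel gives the percentage of summed mt- counts taken by 1 row, with 1 point per library, in the order KO IELp, control IELp, KO spleen cells and control IELs, and a bar for the mean ± SD. mt-Cytb lies between 27.9% and 30.8% in the IELp libraries and between 22.1% and 25.1% in the CD8αα libraries, and mt-Nd6 has its highest values in control IELs.

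mt-Nd6 is the one protein-coding row on the minus strand and encodes a subunit of complex I. It made up 1.39% ± 0.162 of the protein-coding mt- counts in KO IELp, 1.25% ± 0.0988 in control IELp, 1.56% ± 0.0191 in KO spleen cells and 1.87% ± 0.197 in control IELs (SD, n = 3 each). Control IELs were above control IELp by 0.621 percentage points, and KO spleen cells differed from control IELs by -0.312 points, with no overlap in either pair. KO spleen cells differed from KO IELp by 0.166 points, also without overlap. All 3 gave p = 0.1 in a 2-sided exact permutation test, the smallest p that 3 against 3 libraries allow, and 0.133 when adjusted over the 4 comparisons of this share. Without control IEL replicate 1 the difference between KO spleen cells and control IELs was -0.199 points, and without KO IELp replicate 2 that between KO spleen cells and KO IELp was 0.0730 points. KO IELp and control IELp overlapped (exact permutation p = 0.3). The libraries were made without a stated strand, so reads from mt-Nd6 and from RNA opposite to it cannot be told apart.

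The 2 rRNA rows together made up 11.1% ± 0.0890 of mt- counts in KO IELp and 12.5% ± 0.577 in control IELp. Their share was 10.1% ± 0.249 in KO spleen cells and 11.4% ± 0.950 in control IELs (SD, n = 3 each). KO IELp lay below control IELp in this share without overlap, and the difference was -1.39 percentage points (exact permutation p = 0.1, adjusted 0.133). KO spleen cells also lay below control IELs, with a difference of -1.25 points, and below KO IELp, with one of -0.924 points, both without overlap and with the same p. Without control IEL replicate 1 the difference between KO spleen cells and control IELs was -0.758 points. Control IELs and control IELp overlapped (exact permutation p = 0.2). These are shares of reads, and the part of rRNA in mitochondrial RNA cannot be read from them.

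All 37 rows together made up less than 1% of the gene counts in every library. They took 0.547%, 0.473% and 0.429% in the 3 KO IELp libraries and 0.514%, 0.526% and 0.578% in the 3 control IELp libraries. In KO spleen cells they took 0.711%, 0.723% and 0.612%, and in control IELs 0.319%, 0.325% and 0.292%. Control IELs had the lowest shares and KO spleen cells the highest, and neither of these 2 groups overlapped any other. The share in KO spleen cells was 2.19 times that in control IELs and 1.41 times that in KO IELp, and the share in control IELs was 0.578 times that in control IELp. Each of these 3 comparisons gave p = 0.1 in a 2-sided exact permutation test, the smallest possible, and 0.133 when adjusted over 4 comparisons. KO IELp and control IELp overlapped, at 0.483% ± 0.0594 and 0.539% ± 0.0339 (SD, n = 3 each, exact permutation p = 0.3). The library with the lowest share, control IEL replicate 3, also had the highest sum of gut epithelial markers. Without it control IELs differed from control IELp by -0.217 percentage points, against -0.227 with it. KO spleen replicate 3, with the lowest share of its group, also had the lowest sums of myeloid, B cell and erythroid markers of the 3 (69.8, 79.1 and 1.56 CPM). It also had the fewest gene counts of all libraries, 13432598 against 19947734 and 18885163 in KO spleen replicates 1 and 2. The part of either in its share was not tested. The IELp libraries carry a sample number in their descriptions and the CD8αα libraries do not, and whether the sets were prepared together is not given, so a batch and the step between them cannot be told apart. The summed mt- counts leave out reads that fit several places and hold few reads of the rows inside the copied stretch. Reads that fit several places were fewest, as a percentage, in control IELs, as given above. Their part in the differences of the mt- share was not tested. Control IELs also differed in other parts of the gene counts. Ribosomal protein genes took 0.213% there, against 0.544% in KO spleen cells, 0.534% in KO IELp and 0.579% in control IELp. The 10 highest genes took 6.33%, against 3.68%, 2.95% and 3.01% in the same order. What these differences meant for the mt- share was not tested.

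**Figure D3:**
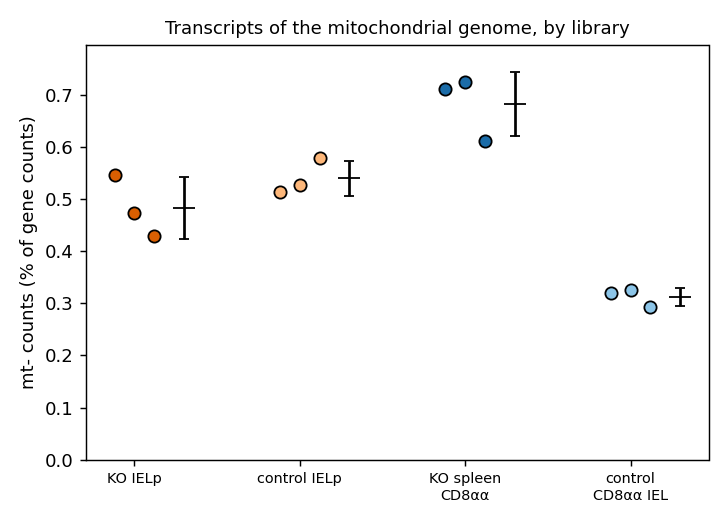
The summed counts of the 37 mt- rows are plotted as a percentage of all gene counts, with 1 point per library and a bar for the mean ± SD of each group. Reads that fit several places are not in these counts. KO spleen cells lie between 0.612% and 0.723%, both IELp groups between 0.429% and 0.578%, and control IELs between 0.292% and 0.325%.

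Single rows were compared with edgeR's quasi-likelihood test separately for each comparison of 3 against 3 libraries, with p-values adjusted over all tested genes (Benjamini-Hochberg) and a call at an adjusted p under 0.05. Between 16 and 19 of the 37 rows passed the filter on low counts. mt-Atp8, mt-Nd3, mt-Nd4l and 15 tRNA rows passed in none of the 4 comparisons, and mt-Ta, mt-Te and mt-Tw did not pass in KO spleen cells against control IELs. Log2 fold changes are relative to TMM scaling, under which the median of all genes was close to 0. On the unscaled FPM values the median of all genes was -0.22 for control IELs against control IELp, 0.11 for KO spleen cells against control IELs. It was -0.11 when KO spleen cells were set against KO IELp.

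**Figure D4:**
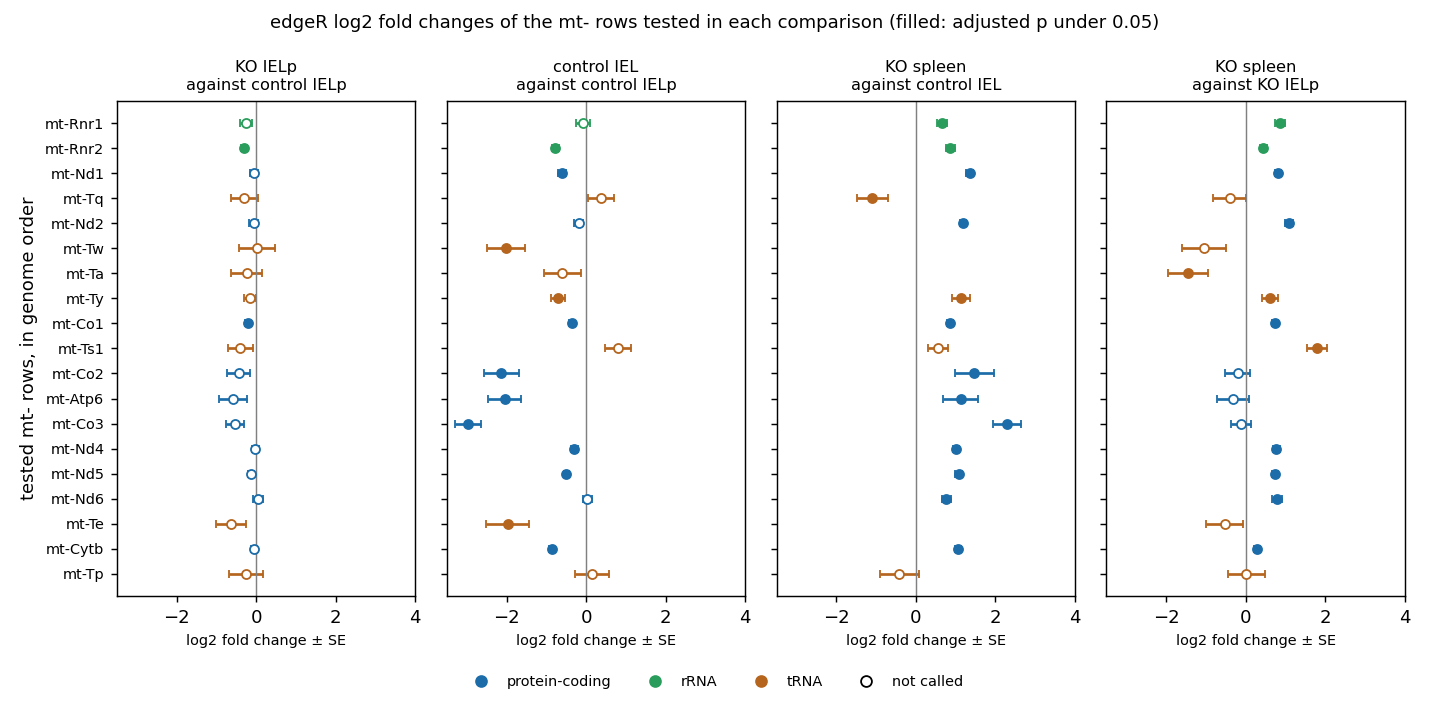
Log2 fold changes ± SE of the mt- rows tested in each of the 4 comparisons, in genome order, with filled points for an adjusted p under 0.05 and colours for protein-coding, rRNA and tRNA rows. Called protein-coding rows lie left of 0 in control IELs against control IELp and right of 0 in both comparisons of KO spleen cells, and 2 rows are called in KO IELp against control IELp.

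In KO IELp against control IELp, 2 of the 19 tested rows were called, mt-Rnr2 and mt-Co1, both lower in KO IELp by small differences. None was higher by edgeR's test, at an unadjusted p under 0.05 or by DESeq2. Of all tested genes 13.1% were called in this comparison, 6.48% higher and 6.58% lower. Of the tested mt- rows 10.5% were called, all of them lower. KO and control mice differ in Cd4-Cre as well as in LRF, and these cannot be told apart here. mt-Rnr2, the 16S rRNA of the large subunit of the mitochondrial ribosome, had 533, 479.5 and 432 CPM in KO IELp and 554, 602 and 671 CPM in control IELp. Its log2 fold change was -0.32 (SE 0.0742, adjusted p = 0.0105), and the groups did not overlap. mt-Co1 had 1519, 1368 and 1194 CPM in KO IELp and 1651, 1555 and 1584 CPM in control IELp, again without overlap, and its log2 fold change was -0.21 (SE 0.0638, adjusted p = 0.0426). Groups without overlap were found for 5 of the 19 rows, all lower in KO IELp, against 29.7% of all tested genes in either direction (12.9% higher and 16.8% lower). These were mt-Rnr2, mt-Co1, mt-Co2, mt-Co3 and mt-Te. None of the 6 copy rows tested passed here, with adjusted p of at least 0.464.

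Neither call was firm. Without KO IELp replicate 3, mt-Rnr2 had an adjusted p of 0.0548 and mt-Co1 of 0.161. mt-Co1 also missed the threshold without KO IELp replicate 2 and without any 1 of the 3 control IELp libraries, with adjusted p up to 0.120. A single edgeR fit of all 12 libraries called neither row, and limma on the FPM values called neither. The other 17 tested rows did not pass, and their log2 fold changes lay between -0.64 and 0.04. mt-Cytb, for example, had 1469 ± 170.1 CPM in KO IELp and 1555 ± 131 CPM in control IELp (SD, n = 3 each), a log2 fold change of -0.06 (SE 0.0706, adjusted p = 0.659). mt-Nd1, mt-Nd2 and mt-Nd4, of complex I, had log2 fold changes of -0.06, -0.07 and -0.02. The median over the 19 rows was -0.24, against -0.01 over all tested genes. By class it was -0.10 for the 10 protein-coding rows, -0.29 for the 2 rRNA rows and -0.26 for the 7 tRNA rows. The protein-coding rows include mt-Co2, mt-Atp6 and mt-Co3, which had few counts.

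In control IELs against control IELp, 12 of 19 tested rows fell and none rose by edgeR's test. At an unadjusted p under 0.05, 1 row was higher (mt-Ts1), and DESeq2 called 1 higher. Of all tested genes 64.8% were called here, 31.9% higher and 32.9% lower, and limma on the unscaled FPM values called 22.8% higher and 44.2% lower. Of the 10 tested protein-coding rows 8 fell, of the 2 rRNA rows 1 and of the 7 tRNA rows 3. The 8 include mt-Co2, mt-Atp6 and mt-Co3, whose mRNA levels cannot be read from their few counts. mt-Cytb had 706, 745 and 732 CPM in control IELs and 1435, 1535 and 1695 CPM in control IELp. The libraries of the groups lay far apart, and its log2 fold change was -0.86 (SE 0.0687, adjusted p = 1.08e-06). mt-Rnr2 had 333, 316 and 265 CPM in control IELs and 554, 602 and 671 CPM in control IELp, a log2 fold change of -0.77 (SE 0.0966, adjusted p = 4.12e-05). mt-Co1 had 1067, 1129 and 991 CPM in control IELs against 1651, 1555 and 1584 CPM in control IELp, and its log2 fold change of -0.36 (SE 0.0623, adjusted p = 4.58e-04) was smaller in size than that of mt-Cytb.

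Within complex I the log2 fold changes of the tested rows lay between -0.61 and 0.03. mt-Nd1 fell with a log2 fold change of -0.61 (SE 0.102, adjusted p = 3.29e-04), mt-Nd5 with -0.49 (SE 0.0696, adjusted p = 9.70e-05) and mt-Nd4 with -0.29 (SE 0.0808, adjusted p = 0.00858). mt-Nd2 had 109, 103 and 96.3 CPM in control IELs and 115, 132 and 164 CPM in control IELp. Its groups did not overlap but it did not pass, at -0.19 (SE 0.117, adjusted p = 0.186), and it passed without control IELp replicate 1 (adjusted p = 0.0418) and by limma on log2(FPM + 1) (adjusted p = 0.0346). mt-Nd6 had 58.0, 49.8 and 45.9 CPM in control IELs and 51.7, 57.1 and 67.4 CPM in control IELp, with a log2 fold change of 0.03 (SE 0.122, adjusted p = 0.824) that turned to -0.19 on the unscaled FPM values. mt-Rnr1 had 61.4, 51.4 and 41.5 CPM in control IELs and 54.5, 56.3 and 80.1 CPM in control IELp, overlapping, with -0.08 (SE 0.171, adjusted p = 0.712). Groups without overlap were found for 13 of 19 rows, all lower in control IELs, against 70.9% of all tested genes in either direction (24.6% higher and 46.3% lower).

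The 3 tested rows inside the copied stretch had the largest fold changes of the protein-coding rows in this comparison. mt-Co3, a core subunit of complex IV, had 9, 9 and 7 counts in control IELs and 65, 75 and 69 counts in control IELp, and its log2 fold change was -2.96 (SE 0.323, adjusted p = 1.37e-05). mt-Co2 and mt-Atp6 had log2 fold changes of -2.14 (SE 0.440, adjusted p = 0.00141) and -2.04 (SE 0.417, adjusted p = 0.00134). Of the rows on the nuclear copy, Gm28437, the copy of mt-Co3, also fell, with -1.88 (SE 0.248, adjusted p = 6.01e-05), and so did Gm28438, the copy of mt-Nd3, with -1.80 (SE 0.279, adjusted p = 1.98e-04). Gm10925, the copy of mt-Atp6, fell with -1.08 (SE 0.322, adjusted p = 0.0125), and the other 2 copy rows tested did not pass. All 7 copy rows together had between 5.22 and 7.99 CPM in control IELs and between 20.6 and 24.5 CPM in control IELp, and the share of reads that fit several places was also lower in control IELs, as given above. Its part in these changes was not tested.

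In KO spleen cells against control IELs, 13 of 16 tested rows rose and 1 fell. Of all tested genes 58.2% were called, 29.1% higher and 29.2% lower, and limma on the unscaled FPM values called 36.2% higher and 24.4% lower. All 10 tested protein-coding rows and both rRNA rows rose, each without overlap between the groups, and the median log2 fold change over the 16 rows was 1.03, against 0.00 over all tested genes. Groups without overlap were found for 14 of 16 rows, 13 higher and 1 lower, against 66.2% of all tested genes (39.2% higher and 26.9% lower). mt-Nd1 had 1055, 1102 and 951 CPM in KO spleen cells and 389.6, 403 and 328 CPM in control IELs, a log2 fold change of 1.35 (SE 0.0882, adjusted p = 6.64e-07). mt-Nd2 had 266, 252 and 239 CPM in KO spleen cells and 109, 103 and 96.3 CPM in control IELs, a log2 fold change of 1.18 (SE 0.0736, adjusted p = 4.82e-07). Every KO spleen library was higher than every control IEL library in both of these complex I rows.

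The other rows outside the copied stretch rose with smaller log2 fold changes. mt-Cytb had 1706, 1759 and 1466 CPM in KO spleen cells and 706, 745 and 732 CPM in control IELs, with 1.05 (SE 0.0722, adjusted p = 9.37e-07). mt-Nd5 and mt-Nd4 had log2 fold changes of 1.08 (SE 0.0817, adjusted p = 2.05e-06) and 1.01 (SE 0.0697, adjusted p = 9.95e-07). mt-Co1 had 2222, 2228 and 1871 CPM in KO spleen cells and 1067, 1129 and 991 CPM in control IELs, with 0.87 (SE 0.0793, adjusted p = 8.03e-06). mt-Nd6 rose with 0.77 (SE 0.105, adjusted p = 1.45e-04). The rRNAs rose with 0.87 (SE 0.109, adjusted p = 7.96e-05) for mt-Rnr2 and 0.65 (SE 0.128, adjusted p = 0.00157) for mt-Rnr1. Inside the copied stretch, mt-Co3 had 56, 50 and 35 counts in KO spleen cells and 9, 9 and 7 counts in control IELs, with 2.29 (SE 0.357, adjusted p = 3.42e-04). mt-Co2 and mt-Atp6 had 1.47 (SE 0.483, adjusted p = 0.0243) and 1.13 (SE 0.432, adjusted p = 0.0463). Leaving out any 1 of the 6 libraries ended the call of mt-Atp6, and leaving out any 1 but control IEL replicate 3 ended that of mt-Co2, with adjusted p up to 0.186 and 0.106. Copy rows rose as well, Gm28438 with 2.46 (SE 0.229, adjusted p = 9.32e-06), Gm28437 with 1.80 (SE 0.299, adjusted p = 5.12e-04) and Gm10925 with 1.14 (SE 0.324, adjusted p = 0.0126), and the other 2 tested did not pass. Their part in the values of the copied rows was not tested.

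In KO spleen cells against KO IELp, 11 of 19 tested rows rose and 1 fell. Of all tested genes 45.0% were called, 22.6% higher and 22.4% lower, and limma on the unscaled FPM values called 16.6% higher and 29.8% lower. Of the 10 tested protein-coding rows 7 rose, and these were the 7 other than mt-Co2, mt-Atp6 and mt-Co3. Among the 7, mt-Nd4 and mt-Co1 lie in part within the copied stretch. mt-Nd2 had 266, 252 and 239 CPM in KO spleen cells and 155, 118 and 114 CPM in KO IELp, a log2 fold change of 1.08 (SE 0.0957, adjusted p = 9.83e-07). mt-Nd1 had 1055, 1102 and 951 CPM in KO spleen cells and 739, 592 and 574 CPM in KO IELp, with 0.82 (SE 0.0821, adjusted p = 3.31e-06). The groups of both rows did not overlap. mt-Nd4, mt-Nd5, mt-Nd6 and mt-Co1 rose with log2 fold changes between 0.74 and 0.79, also without overlap.

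mt-Cytb differed least of the 7. It had 1706, 1759 and 1466 CPM in KO spleen cells and 1645, 1459 and 1305 CPM in KO IELp, where the groups overlapped, and its log2 fold change was 0.27 (SE 0.0774, adjusted p = 0.0111). Without KO IELp replicate 3 its adjusted p was 0.0574, DESeq2 gave 0.0777 and limma on log2(FPM + 1) gave 0.283. Both rRNAs rose, mt-Rnr1 with 0.85 (SE 0.129, adjusted p = 1.30e-04) and mt-Rnr2 with 0.44 (SE 0.0876, adjusted p = 0.0011), and the libraries of mt-Rnr2 overlapped. By limma mt-Rnr2 had an adjusted p of 0.0708. mt-Co2, mt-Atp6 and mt-Co3 did not pass, with log2 fold changes of -0.20, -0.32 and -0.11. Gm28438 rose with 0.96 (SE 0.195, adjusted p = 0.00131), and the 4 other copy rows tested did not pass. Groups without overlap were found for 9 of 19 rows, 8 higher and 1 lower, against 56.4% of all tested genes (20.4% higher and 36.0% lower).

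The 2 steps from precursor to CD8αα cell were then set against each other in 1 fit of all 12 libraries. The quantity tested was the log2 fold change of KO spleen cells over KO IELp minus that of control IELs over control IELp. It was above 0 with an adjusted p under 0.05 for 13 of the 19 tested rows and below 0 for none, by edgeR's test or at an unadjusted p under 0.05, and limma called none below 0. Of all tested genes 46.7% were called in this test, 24.2% above 0 and 22.5% below 0, and limma on the unscaled FPM values gave 31.2% and 19.2%. All 10 tested protein-coding rows, both rRNA rows and mt-Ty passed. The 10 include mt-Co2, mt-Atp6 and mt-Co3, whose mRNA levels cannot be read from their few counts. Outside the copied stretch, the difference was 1.41 (SE 0.147, adjusted p = 8.66e-07) for mt-Nd1, 1.25 (SE 0.169, adjusted p = 1.62e-05) for mt-Nd2 and 1.12 (SE 0.117, adjusted p = 9.37e-07) for mt-Cytb. The smallest of them was 0.73 (SE 0.184, adjusted p = 0.00388) for mt-Nd6. Of the 6 copy rows tested Gm28438 and Gm28437 passed, with 2.74 (SE 0.331, adjusted p = 4.58e-06) and 2.05 (SE 0.335, adjusted p = 1.04e-04). Genotype and tissue differ together between the CD8αα groups, and this test does not separate them.

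The tRNA rows are shorter than a read, at 59 to 75 bases against 76. They held little, between 290.0 and 891 counts per library, and nearly all of it on the rows of 1 strand. No strand is stated for the counting, so reads of a tRNA and reads from RNA opposite to it cannot be told apart. The 8 tRNA rows on the minus strand had 5265 counts over the 12 libraries, 96.2% of all tRNA counts, and 7 of the 8 had counts in every library. The 14 tRNA rows on the plus strand had 207 counts. Of these 14, 8 were at 0 in all 12 libraries, where a count of 0 allows up to 3 counts (0.0151 CPM over the pooled libraries), and 1, mt-Tw, had counts in all 12. The highest sums were those of mt-Ts1 with 2418 counts and mt-Ty with 1922 counts, both on the minus strand and both next to mt-Co1, which is read from the plus strand. mt-Ts1 (chrM:6870-6938), a serine tRNA, overlaps the end of mt-Co1 by 3 bases on the opposite strand. The last 40 bases of mt-Co1 and the whole of mt-Ts1 are shown because no stated strand separates their reads. Capitals mark the bases that they share, each in its own 5′ to 3′ direction. mt-Ty, the tyrosine tRNA at the other end of mt-Co1, follows with no base marked.

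mt-Co1 end: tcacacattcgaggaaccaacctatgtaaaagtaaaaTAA

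mt-Ts1: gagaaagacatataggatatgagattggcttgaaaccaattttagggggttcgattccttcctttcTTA

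mt-Ty: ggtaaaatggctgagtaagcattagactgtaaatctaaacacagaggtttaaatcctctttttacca

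**Figure D5:**
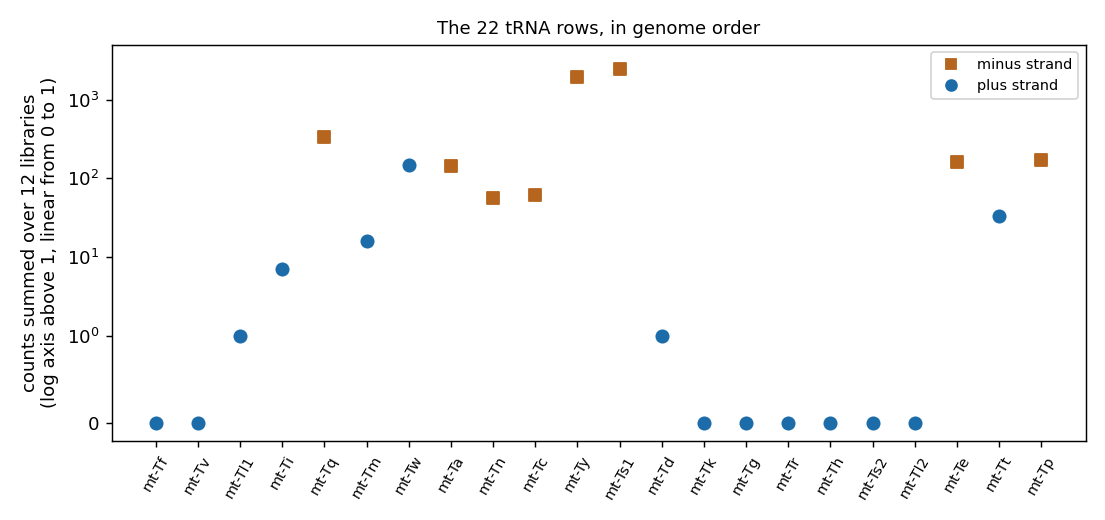
Counts of each of the 22 tRNA rows summed over the 12 libraries, in genome order, with squares for the minus strand and circles for the plus strand, on an axis that is logarithmic above 1 and linear below. The 8 rows on the minus strand lie between 57 and 2418 counts, and the 14 on the plus strand between 0 and 149.

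Of the 22 tRNA rows, 7 were tested in at least 1 comparison, and no direction was common to them. mt-Ts1 had 25.7, 22.5 and 11.6 CPM in KO spleen cells and 6.60, 6.98 and 5.33 CPM in KO IELp, without overlap, and rose with a log2 fold change of 1.79 (SE 0.249, adjusted p = 6.73e-05). In control IELs it had 13.2, 12.9 and 11.4 CPM and in control IELp 13.6, 7.70 and 3.83 CPM, which overlapped and did not pass, at 0.80 (SE 0.335, adjusted p = 0.056). Without control IELp replicate 1, the highest of its group, that adjusted p was 0.00313, and DESeq2 gave 0.0375 with all 6 libraries. Without KO spleen replicate 3 the comparison of KO spleen cells with control IELs, 0.56 (SE 0.250, adjusted p = 0.0786) with it, had an adjusted p of 0.00112.

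mt-Ty was called in 3 comparisons. It had 15.2, 14.8 and 9.08 CPM in KO spleen cells and 4.85, 6.56 and 5.05 CPM in control IELs, with 1.14 (SE 0.231, adjusted p = 0.00187), and it fell in control IELs against control IELp with -0.71 (SE 0.181, adjusted p = 0.00543). Against KO IELp, where its groups overlapped, it rose in KO spleen cells with 0.61 (SE 0.199, adjusted p = 0.0234), a call that ended without any 1 of 4 libraries (KO IELp replicates 2 and 3, KO spleen replicates 1 and 2, adjusted p up to 0.0906). mt-Te (glutamate) and mt-Tw (tryptophan) fell in control IELs against control IELp, with -1.97 (SE 0.539, adjusted p = 0.00794) and -2.01 (SE 0.472, adjusted p = 0.00326). mt-Tw had 4, 4 and 4 counts in control IELs and 17, 25 and 11 counts in control IELp. mt-Tq (glutamine) fell in KO spleen cells against control IELs, with -1.10 (SE 0.389, adjusted p = 0.0337), and mt-Ta (alanine) fell in KO spleen cells against KO IELp, with -1.45 (SE 0.499, adjusted p = 0.0303). Leaving out any 1 of the 6 libraries ended the call of mt-Ta, with adjusted p up to 0.142, and any 1 but KO spleen replicate 1 ended that of mt-Tq, with adjusted p up to 0.111. mt-Tp (proline) passed in no comparison. The remaining 15 tRNA rows had between 0 and 61 counts over the 12 libraries.

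As a share of mt- counts, tRNA rows were 0.461% ± 0.0151 in KO IELp, 0.502% ± 0.137 in control IELp, 0.530% ± 0.125 in KO spleen cells and 0.735% ± 0.0182 in control IELs (SD, n = 3 each). The 3 control IEL libraries lay above all others (exact permutation p = 0.1 against control IELp and against KO spleen cells, adjusted 0.2 over 4 comparisons). Without KO spleen replicate 3 the difference of KO spleen cells minus control IELs was -0.135 percentage points, against -0.205 with it. Like the rRNA share, the tRNA share is one of reads and not of RNA molecules.

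The nuclear genes of mitochondrial gene expression and respiration were counted in 6 lists, which were chosen with results of these data known. In KO IELp against control IELp few passed, where 6.48% of all tested genes were higher and 6.58% lower. Of 79 tested respiratory chain subunits 1 rose and 4 fell, of 76 mitochondrial ribosomal proteins none rose and 3 fell, and of 16 genes of mtDNA upkeep and transcription, 35 of RNA processing and 10 regulators of mitochondrial biogenesis none passed edgeR's test. At an unadjusted p under 0.05 the counts of these 3 lists were 0, 5 and 0, and DESeq2 called 0, 1 and 0. Of 28 translation factors and aminoacyl-tRNA synthetases 1 fell, Iars2, the isoleucyl-tRNA synthetase of mitochondria, with -0.24 (SE 0.0710, adjusted p = 0.0388). Mrpl17 and Mrpl52, of the large ribosomal subunit, fell with -0.38 (SE 0.0948, adjusted p = 0.0151) and -0.54 (SE 0.142, adjusted p = 0.0205). Atp5g3, a c subunit of ATP synthase, fell with -0.22 (SE 0.0588, adjusted p = 0.0204), and Cox6b2, an isoform of a complex IV subunit, rose with 1.43 (SE 0.294, adjusted p = 0.00437).

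In control IELs against control IELp, 54 of the 79 nuclear respiratory chain subunits fell and 6 rose, with a median log2 fold change of -0.43, where 32.9% of all tested genes were lower and 31.9% higher. Of the 76 ribosomal proteins 44 fell and 5 rose, with a median of -0.36, against -0.01 over all tested genes. Atp5g3 fell with -0.85 (SE 0.0722, adjusted p = 1.93e-06). Mrps6 and Mrpl34, of the small and the large mitochondrial ribosomal subunit, fell with -1.72 (SE 0.112, adjusted p = 2.09e-07) and -1.12 (SE 0.0953, adjusted p = 1.94e-06). Cox6a2, an isoform of a complex IV subunit best known from muscle, rose with 4.70 (SE 0.255, adjusted p = 5.02e-08). 

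Of the 16 upkeep and transcription genes 7 fell and 2 rose. Polg, the polymerase that copies mtDNA, fell with -1.23 (SE 0.0942, adjusted p = 7.99e-07) and Primpol, a primase and polymerase, rose with 0.80 (SE 0.0841, adjusted p = 9.78e-06). Of the 35 RNA processing genes 10 fell and 9 rose, and Rexo2, an RNA exonuclease, fell with -0.89 (SE 0.0894, adjusted p = 6.86e-06) and Trnt1, which adds the 3′ ends of tRNAs, rose with 0.69 (SE 0.0651, adjusted p = 4.51e-06). Of the 28 translation genes 11 fell and 2 rose, and Lars2, the leucyl-tRNA synthetase of mitochondria, fell with -1.06 (SE 0.0983, adjusted p = 3.69e-06). Of the 10 regulators 3 fell and 3 rose. Myc and Pprc1 fell with -1.38 (SE 0.126, adjusted p = 3.32e-06) and -0.78 (SE 0.0915, adjusted p = 2.29e-05). Limma on the unscaled FPM values called 64 lower and 4 higher among the respiratory chain subunits and 64 and 1 among the ribosomal proteins. It called 9 lower and 1 higher of upkeep and transcription, 18 and 3 of processing, 14 and 1 of translation and 4 and 2 of the regulators.

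In KO spleen cells against control IELs, 42 of 79 respiratory chain subunits rose and 7 fell, and 33 of 76 ribosomal proteins rose and 8 fell, where 29.1% of all tested genes were higher and 29.2% lower. The medians were 0.27 and 0.26, against 0.00 over all tested genes. Ndufa4, a respiratory chain subunit, and Cox6b2 rose with 1.20 (SE 0.110, adjusted p = 8.12e-06) and 3.86 (SE 0.365, adjusted p = 1.04e-05). Of the large ribosomal subunit, Mrpl30 rose with 0.90 (SE 0.0967, adjusted p = 2.54e-05) and Mrpl52 fell with -1.45 (SE 0.175, adjusted p = 5.96e-05). Polg and Tefm, an elongation factor of mitochondrial transcription, rose with 1.52 (SE 0.0819, adjusted p = 1.65e-07) and 1.04 (SE 0.133, adjusted p = 8.84e-05). Lrpprc, which binds and stabilises mitochondrial mRNAs, rose with 0.90 (SE 0.0887, adjusted p = 1.35e-05), and Gtpbp3, which modifies mitochondrial tRNAs, fell with -0.97 (SE 0.123, adjusted p = 8.12e-05). Lars2 rose with 1.56 (SE 0.0605, adjusted p = 1.74e-08) and Mtif2, a mitochondrial translation initiation factor, fell with -0.91 (SE 0.0981, adjusted p = 2.59e-05). Pprc1 and Myc rose with 1.08 (SE 0.0905, adjusted p = 4.33e-06) and 1.06 (SE 0.130, adjusted p = 6.62e-05). Of the 16 upkeep and transcription genes 4 rose and 3 fell, of the 35 processing genes 9 rose and 7 fell, of the 28 translation genes 6 rose and 3 fell, and of the 10 regulators 2 rose and 4 fell. Limma on the unscaled FPM values called 53 higher and 4 lower among the respiratory chain subunits and 45 and 4 among the ribosomal proteins. It called 7 higher and 1 lower of upkeep and transcription, 11 and 6 of processing, 10 and 1 of translation and 3 and 2 of the regulators.

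In KO spleen cells against KO IELp, 11 mt- rows rose. By edgeR's test the respiratory chain subunits and the mitochondrial ribosomal proteins had smaller shares called higher, and called lower, than all tested genes. Of 79 respiratory chain subunits 4 rose and 14 fell, and of 76 ribosomal proteins 3 rose and 13 fell, where 22.6% of all tested genes were higher and 22.4% lower. The medians were -0.07 and -0.08. On the unscaled FPM values limma called 1 higher and 27 lower among the respiratory chain subunits and 25 lower among the ribosomal proteins. Of all tested genes it called 16.6% higher and 29.8% lower. Cox7a2, of complex IV, fell with -0.49 (SE 0.0608, adjusted p = 2.49e-05) and Cox6a2 rose with 3.53 (SE 0.257, adjusted p = 1.49e-07). Mrpl34 and Mrps6 fell with -0.88 (SE 0.0878, adjusted p = 3.04e-06) and -0.70 (SE 0.0979, adjusted p = 6.88e-05). Ssbp1, which binds single-stranded mtDNA, and Mterf2 fell with -0.51 (SE 0.0914, adjusted p = 4.84e-04) and -0.62 (SE 0.143, adjusted p = 0.00339). Rexo2 fell with -0.46 (SE 0.0635, adjusted p = 6.72e-05), and Trmt10c, of the enzyme that cuts the 5′ ends of tRNAs, rose with 0.43 (SE 0.0938, adjusted p = 0.0024). Lars2 rose with 0.70 (SE 0.0506, adjusted p = 1.49e-07) and Tars2, the threonyl-tRNA synthetase of mitochondria, fell with -0.33 (SE 0.0664, adjusted p = 0.00125). Of the regulators, Gabpb2 rose with 0.65 (SE 0.0979, adjusted p = 1.22e-04) and Myc fell with -0.31 (SE 0.0516, adjusted p = 2.54e-04). Of the other lists 2 rose and 5 fell of upkeep and transcription, 4 and 4 of processing, 1 and 3 of translation, and 1 and 2 of the regulators. By limma these were 0 and 5, 2 and 8, 1 and 6, and 1 and 2. In the test of the difference between the steps, 43 of 79 respiratory chain subunits and 32 of 76 ribosomal proteins were above 0 and 5 of each list below, against 24.2% of all tested genes above 0 and 22.5% below. Limma on the unscaled FPM values gave 51 above and 4 below among the subunits and 46 and 2 among the ribosomal proteins.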

How the data were processed

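Per the labels, RNA of 40000 sorted cells per sample was taken up with RNeasy Plus Micro columns, turned into cDNA (SMARTer Ultra Low Input) and then into Nextera XT libraries, which were read as 76-base pairs. STAR, HTSeq, DESeq2, Trimmomatic, bcl2fastq 2.17 and the build mm10 are named, per the submitters' processing notes. The strand, the annotation and the settings for reads that fit several places are not stated there.

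The authors deposited a table of counts for 48663 gene symbols with 5 rows of unassigned reads, and a table named FPM of 26629 genes, which holds CPM of the gene total. Depth ranged from 13432598 to 19947734 gene counts per library. Counting error alone is covered by the limit of 3 counts given for a 0.

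Counts were tested by edgeR 4.0.16's quasi-likelihood method (R 4.3.3, filterByExpr, TMM, Benjamini-Hochberg over all tested genes, threshold 0.05), 2-sided, on the 6 libraries of each comparison, and on all 12 for the difference between the steps. The SE of a log2 fold change is its size over the square root of F. Shares were compared with 2-sided exact permutation tests. The fit was tested on simulated counts. Correlations of same-numbered libraries were at most 0.0825, and replicate numbers were not used as a block in the main fits.

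Positions and sequences are from GENCODE M21 (GRCm38). Nuclear copies were sought with blastn 2.17.0 among its transcripts, since the genome sequence was not used here. This replaced a search of the genome for long stretches at 98% identity.

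Every mt- row is accounted for. Named were the 13 protein-coding and 2 rRNA rows, the tRNA rows that passed the filter, the copy rows and, from each list of nuclear genes, those called among the 2 of smallest adjusted p in each comparison of 2 groups. The members, lists and tests were chosen with earlier results of these data known. Alternatives were median-of-ratios factors, DESeq2 1.42.0, no filter, scaling over nuclear genes, 1 fit of 12 libraries, limma 3.58.1 on log2 of FPM with an added 1 or 0.1 (at least 1 FPM in 3 libraries, or no filter), other denominators, a replicate block and leaving out each library. A further marker of other cells and 1 gene that the rule for named genes picks are not reported here.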

Additional observations from a re-analysis of the deposited data

Results flagged for a closer look

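The change from precursor to CD8αα cell differed between the KO step (KO spleen cells over KO IELp) and the control step (control IELs over control IELp) for 13 mt- rows, by the test of the difference itself in edgeR's fit of 12 libraries. The log2 differences were 1.41 for mt-Nd1, 1.25 for mt-Nd2, 1.03 for mt-Nd4, 1.21 for mt-Nd5 and 0.73 for mt-Nd6 of complex I. They were 1.12 for mt-Cytb and 1.08 for mt-Co1, 0.91 for mt-Rnr1 and 1.19 for mt-Rnr2, and 1.30 for mt-Ty. The rows with few counts inside the copied stretch had 1.91 for mt-Co2, 1.71 for mt-Atp6 and 2.83 for mt-Co3. In the control step mt-Nd2, mt-Nd6 and mt-Rnr1 did not pass, and in the KO step mt-Co2, mt-Atp6 and mt-Co3 did not. Adjusted p-values ranged from 7.21e-07 to 0.023. Genotype and tissue differ together between the CD8αα groups, and these differences do not separate them. Whether the KO spleen cells derive from KO IELp was not tested.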

How the results depend on the processing

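Of the counts of called rows under other settings 70 stayed within 1.5 times and 9 moved. Of the share differences 131 kept their sign and 1 reversed, and since 3 against 3 libraries cannot reach p under 0.05 this says nothing of their stability. Leaving out 1 library moved 15 of 96 share differences by over 1.5 times, 4 of them between groups that did not overlap with all libraries, as given above. In KO IELp against control IELp the count of called rows was 2, but 0 in 1 fit of all 12 libraries and 0 by limma with 1 or 0.1 added to the FPM values, with or without a filter. Leaving out 1 library gave between 0 and 2. The tRNA share of KO IELp minus control IELp, -0.0405 percentage points, turned to 0.0306 without control IELp replicate 1, and leaving out 1 library gave between -0.107 and 0.0306. Leaving out 1 library gave between 12 and 15 called rows in control IELs against control IELp, between 11 and 12 in KO spleen cells against control IELs (14 with all 6), between 9 and 11 in KO spleen cells against KO IELp (12 with all 6) and between 12 and 14 for the difference between the steps (13 with all 12). Of the log2 fold changes of called rows under other settings, 778 kept their side of the threshold and 65 lost it, all with the same direction. The 65 belonged to mt-Co1 and mt-Rnr2 in KO IELp against control IELp, mt-Atp6, mt-Co2 and mt-Tq in KO spleen cells against control IELs, mt-Cytb, mt-Rnr2, mt-Ta and mt-Ty in KO spleen cells against KO IELp, and mt-Atp6 in the difference between the steps (without any 1 of 4 libraries: control IELp replicate 3, KO IELp replicate 2, control IEL replicate 2 or KO spleen replicate 1, adjusted p up to 0.0620). The cause was not tested. Of 597 values of rows not called, 39 changed sign, each with an adjusted p of at least 0.237, and 16 passed the threshold. With the replicate block the counts were 2, 13, 12, 11 and 13 in the order above. Correlations of same-numbered libraries were low, between -0.0361 and 0.0825. Each number nevertheless matched itself best in control IELs against control IELp and in KO spleen cells against KO IELp. Whether same-numbered libraries form pairs cannot be told from this. mt-Nd4l, with 3 counts over all libraries, was not tested, and a difference in it was not detectable at this depth.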
